A study of Mus musculus with 6 samples.

Results

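The 6 genes described here are the chemokine receptors Ccr7, Cxcr4, Cxcr2, Ccr1 and Ccr2 and the chemokine receptor-like gene Ccrl2, taken by name from a table of 23863 genes. All 6 had a mean of 1 RPKM (reads scaled by transcript length and by library size) or more over the libraries and so belonged to the 10576 genes tested. Poly(A) RNA was sequenced from bone marrow-derived dendritic cells (BMDC) of C57BL/6 mice, 6 weeks old, which were cultured in 10 ng/ml GM-CSF with 1 ng/ml IL-4, selected on beads for CD11c and matured with 100 ng/ml LPS for 24 h. The wildtype (WT) culture came from Mettl3 fl/fl mice, and the knockout (KO, Mettl3-/- in the labels) culture from littermates in which Cre driven by the CD11c promoter removes an early part of Mettl3, so that the deletion is limited to cells that have expressed CD11c. Mettl3 encodes the enzyme that places the methyl mark N6-methyladenosine (m6A) on mRNA. Cells were taken at 0, 3 and 6 h of actinomycin D, which blocks transcription, and the question asked of the libraries was how fast mRNAs are lost in each genotype. The paper names 2 pairs of littermates for this experiment, and how these relate to the libraries was not given. Culture stands below for the 3 libraries of 1 genotype, and it was not stated that they came from 1 culture. There was 1 library for each genotype and time, so no difference below has a replicate check and no p-value is given. At each time the comparison of KO with WT is between 2 libraries.

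Chemokine receptors are membrane proteins that couple to inhibitory (Gi) G proteins and steer cells along gradients of chemokines. A maturing DC switches on Ccr7, which reads Ccl19 and Ccl21 and brings the cell from tissue into the lymph node, while receptors for inflammatory chemokines, such as Ccr1 and Ccr2, are typical of immature DC and of monocytes. Cxcr4 reads Cxcl12, Cxcr2 is the neutrophil receptor for Cxcl1, Cxcl2 and their relatives, and Ccrl2 binds the attractant chemerin without known coupling to G proteins.

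The libraries held about 17500000 to 20800000 reads each, as recovered from the smallest steps of RPKM in low genes. Mettl3 itself was read at 7.79, 2.88 and 2.65 RPKM in the WT libraries of 0, 3 and 6 h, against 6.84, 5.15 and 4.30 RPKM in those of KO, and since RPKM covers the whole gene and only an early part is deleted, these values do not check the labels. Synthetic ERCC RNAs, added in proportion to total RNA, took 10.8, 25 and 31.1% of the summed RPKM in WT and 7.73, 25.7 and 18.5% in KO at 0, 3 and 6 h. On amounts scaled by these RNAs the median gene, that is, the median level of the genes tested in each library, was left at 14.8% and 7.28% in WT at 3 and 6 h, but at 9.79% and 12.3% in KO, so that scaled amounts in KO were higher at 6 h than at 3 h although transcription was blocked. The log2 ratio of KO to WT of the median gene was 0.40, -0.19 and 1.16 at the 3 times. Levels and shares left are therefore also given relative to the median gene, a measure that no library factor can move, whereas ratios of half-lives still depend on the scaling. Intervals of ratios and shares are exact 95% (Clopper-Pearson) intervals on the approximate reads behind them, those of half-lives and decay rates use the normal approximation for the same reads, and both cover counting error only.

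Ccr7 was by far the most abundant of the receptors. It stood at 1771 RPKM in WT and at 1738 RPKM in KO before actinomycin D, rank 34 and rank 40 of all genes in those libraries. At 3 h it was at 132 and 137 RPKM, and at 6 h at 120.0 and 125 RPKM, in WT and KO. The level fell steeply with actinomycin D, and the cultures differed little beside that fall. At 3 and 6 h Ccr7 still held rank 618 and rank 562 of all genes in WT and rank 595 and rank 630 in KO. Ccr7 (chr11:99144196-99155077 on the minus strand of mm10, 3 exons) made up 83.8 to 92.3% of the summed RPKM of the 6 receptors in every library. It took 0.285% of the RPKM of all genes in WT and 0.265% in KO at 0 h, and 0.0140 to 0.0174% later.

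Cxcr4 (chr1:128588199-128592293, minus strand) came next at 0 h, with 86.6 RPKM in WT and 104 RPKM in KO. It was at 3.95 and 2.92 RPKM in the WT libraries, against 5.19 and 3.34 RPKM in those of KO at 3 and 6 h. Ccrl2 (chr9:111054486-111057519, minus strand) was at 44.3, 7.54 and 7.48 RPKM in the WT libraries, against 48.5, 10.1 and 8.77 RPKM in those of KO. Both genes were high in the 2 libraries without actinomycin D and low in the other 4, and because Cxcr4 fell further, Ccrl2 lay above it at 3 and 6 h in both cultures.

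The remaining receptors were weakly expressed, and here the KO libraries read higher. Ccr1 (chr9:123962124-123968692, minus strand) was at 13.6, 3.71 and 1.32 RPKM in the WT libraries of 0, 3 and 6 h, against 19.1, 7.14 and 5.21 RPKM in those of KO. Cxcr2 (chr1:74153989-74161246, plus strand) was at 2.75, 0.106 and 0.192 RPKM in the WT libraries, against 8.40, 0.543 and 0.514 RPKM in those of KO, about 6 and 11 reads in WT at 3 and 6 h. Ccr2 (chr9:124101950-124113557, plus strand) was at 1.28, 1.01 and 0.582 RPKM in the WT libraries, against 3.29, 3.52 and 2.88 RPKM in those of KO. For Ccr2 every KO library lay above every WT library, while for Ccr1 and Cxcr2 the KO library was the higher one at each time.

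At 0 h the order of levels per length was the same in both cultures, Ccr7, Cxcr4, Ccrl2, Ccr1, Cxcr2 and Ccr2, and each neighbour in it differed from the next beyond counting error. The closest of these neighbours were Cxcr4 and Ccrl2 in WT, at a ratio of 1.96 (1.85 to 2.07). Later, Cxcr4 and Ccr1 could not be told apart in WT at 3 h, at a ratio of 1.06 (0.85 to 1.32), nor Cxcr4 and Ccr2 in KO at 6 h, at 1.16 (0.901 to 1.51). In the later KO libraries Ccr1 had passed Cxcr4, by 1.38 (1.16 to 1.65) at 3 h and by 1.56 (1.23 to 1.96) at 6 h.

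**Figure D1:**
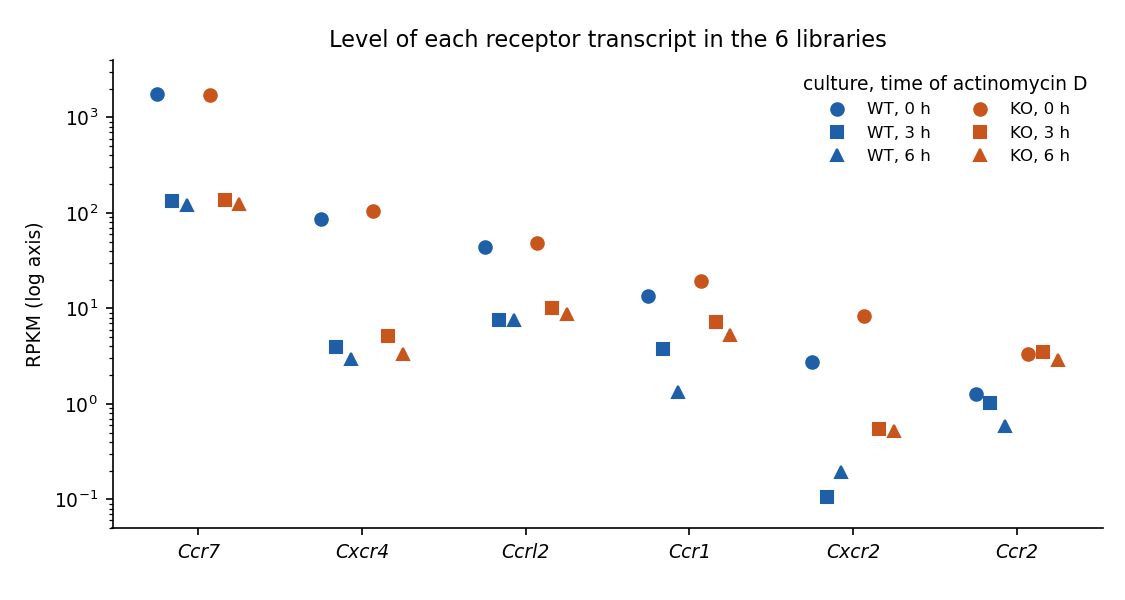
RPKM of each receptor transcript (log axis) in the 6 libraries, WT in blue and KO in orange, with the time of actinomycin D as the symbol; each point is 1 library. Ccr7 falls from 1771 RPKM to 132 RPKM in WT between 0 and 3 h and is at 120.0 RPKM at 6 h, and the 3 KO points of Ccr2 all lie above its 3 WT points.

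The loss of transcript after transcription was blocked was then measured. A gene was called short-lived where the share of it left was at least 2-fold under that of the median gene at 3 h and at 6 h in both cultures. Of the 6 receptors 4 were short-lived, Ccr7, Cxcr4, Cxcr2 and Ccrl2, against 4.16% of all genes tested. None of the 6 was long-lived, that is, at least 2-fold over the median gene at both times in both cultures, a call that 11.3% of all genes received. Of the list of 18 other chemokine receptors, 3 passed the filter, and of these Cxcr5, the receptor that leads B cells and some T cells into follicles, was short-lived as well.

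Cxcr4 was lost fastest. On spike-in scaled amounts 1.35% of it (1.1 to 1.55) was left in WT at 3 h and 0.613% (0.478 to 0.721) at 6 h. In KO 0.966% (0.813 to 1.1) and 0.869% (0.692 to 1.03) were left. Its share left was 10.1- to 14.2-fold under that of the median gene in the 4 libraries with actinomycin D. The half-life of Cxcr4, the inverse of its mean decay rate over the first 3 h and the whole 6 h, was 0.607 h in WT (0.590 to 0.625) and 0.593 h in KO (0.578 to 0.609). At most 0.321% of all genes tested had a shorter half-life in WT and at most 0.284% in KO. These percentages of genes, here and below, also count genes with no net loss, so each is an upper limit.

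Ccr7 followed closely. In WT 2.15% of it (2.09 to 2.21) was left at 3 h and 1.19% (1.16 to 1.23) at 6 h, and in KO 1.5% (1.46 to 1.54) and 1.89% (1.83 to 1.95). These shares were 6.10- to 6.89-fold under the median gene. The half-life was 0.687 h in WT (0.683 to 0.691) and 0.673 h in KO (0.669 to 0.676), with at most 0.416% and 0.435% of genes below it. Its length rests on the 3 h libraries, since without them it was 0.939 h (WT) and 1.05 h (KO). The receptor that stood among the 40 most abundant transcripts of the mature DC was thus also among the fastest to be lost.

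Cxcr2 was left at 2.09% and 1.80% in WT and at 1.44% and 1.90% in KO at 3 and 6 h, and its half-life was 0.708 h in WT (0.616 to 0.833) and 0.668 h in KO (0.627 to 0.716). These shares include the pseudocount of 0.1 RPKM that was added to every value, which for Cxcr2 is close to the RPKM itself, and from reads alone the share left in WT at 3 h lay between 0.381% and 2.33%. With a pseudocount of 1 RPKM Cxcr2 was no longer short-lived. Ccrl2 was left at 4.97% (4.39 to 5.49) and 3.01% (2.65 to 3.33) in WT and at 3.99% (3.59 to 4.37) and 4.80% (4.25 to 5.30) in KO. Its half-life was 0.875 h in WT (0.852 to 0.90) and 0.878 h in KO (0.856 to 0.90). Ccrl2 was the least extreme of the 4 short-lived receptors, 2.42-fold under the median gene where it was closest to it. Over all genes tested the median half-life was 1.37 h in WT and 1.3 h in KO.

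Ccr1 stood outside the call, which it met only in WT at 6 h. In WT 8.01% of it (6.70 to 9.15) was left at 3 h and 1.82% (1.32 to 2.18) at 6 h, 1.85- and 4.01-fold under the median gene. In KO 7.17% (6.33 to 7.99) and 7.27% (6.22 to 8.21) were left, 1.37- and 1.70-fold under it. Its half-life was 0.918 h in WT (0.878 to 0.962) and 1.05 h in KO (1.02 to 1.09), with at most 4.93% and 18.4% of genes below it.

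Ccr2 was the slow member of the group. It was left at 23.2% (16.1 to 32.4) and 8.70% (5.21 to 12.3) in WT and at 20.3% (16.6 to 24.8) and 23.1% (18.4 to 28.5) in KO. At both times in both cultures more of it was left than of the median gene, between 1.19- and 2.07-fold. Its half-life was 1.55 h in WT (1.33 to 1.86) and 1.79 h in KO (1.60 to 2.01), with at most 64.4% and 83.7% of genes below it. It was read from about 33 to 80 reads in the WT libraries, so its values there are the least certain beside those of Cxcr2.

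Half-lives of the other receptors in KO also moved with the choice of libraries. Without the 3 h libraries they became 0.876 h for Cxcr4, 1.05 h for Cxcr2, 1.37 h for Ccrl2, 1.59 h for Ccr1 and 2.84 h for Ccr2, while the median over all genes tested became 2.10 h. With no spike-in scaling the half-life of Ccr2 was 7.28 h in WT and 2531 h in KO, that is, close to no loss of RPKM, so its length is set by the scaling. The counting intervals above do not cover these shifts.

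**Figure D2:**
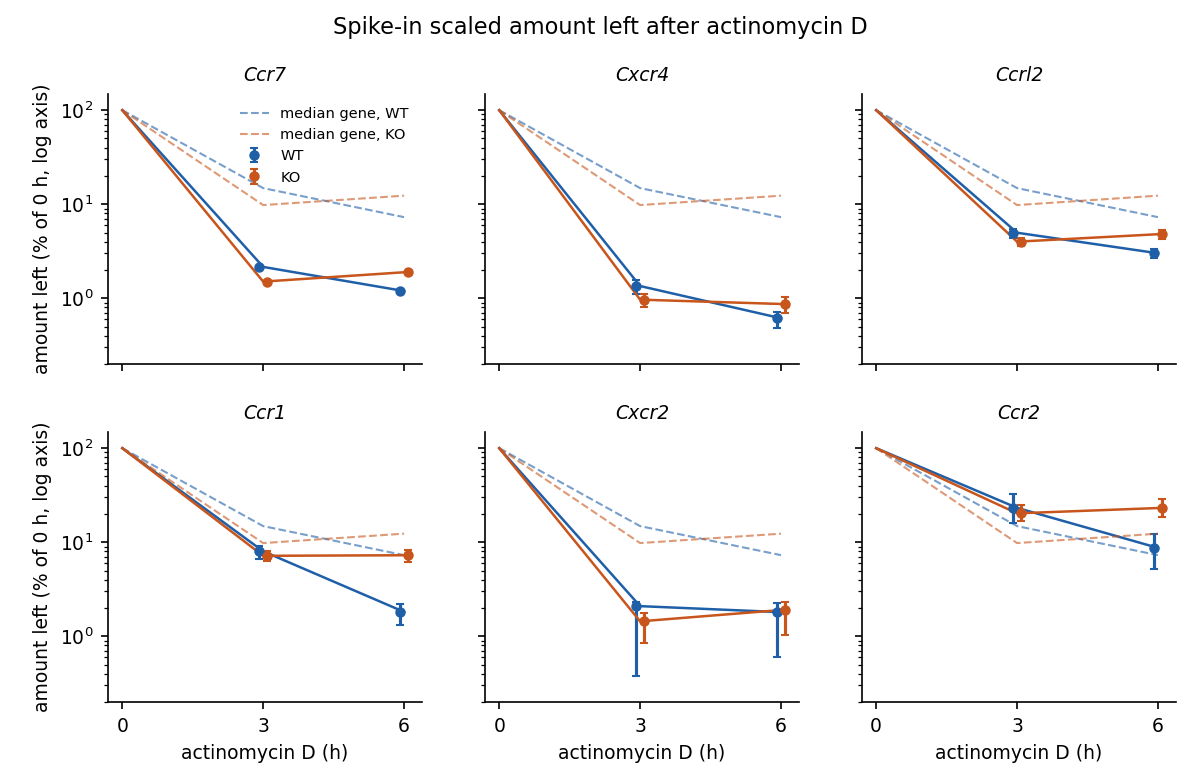
Spike-in scaled amount left, in percent of 0 h (log axis), against the time of actinomycin D for each receptor in WT (blue) and KO (orange), with 95% counting intervals, and the median gene as dashed lines. Ccr7, Cxcr4, Cxcr2 and Ccrl2 lie under the dashed lines at both times, and Ccr2 lies over them (23.2% in WT at 3 h against 14.8% for the median gene).

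**Figure D3:**
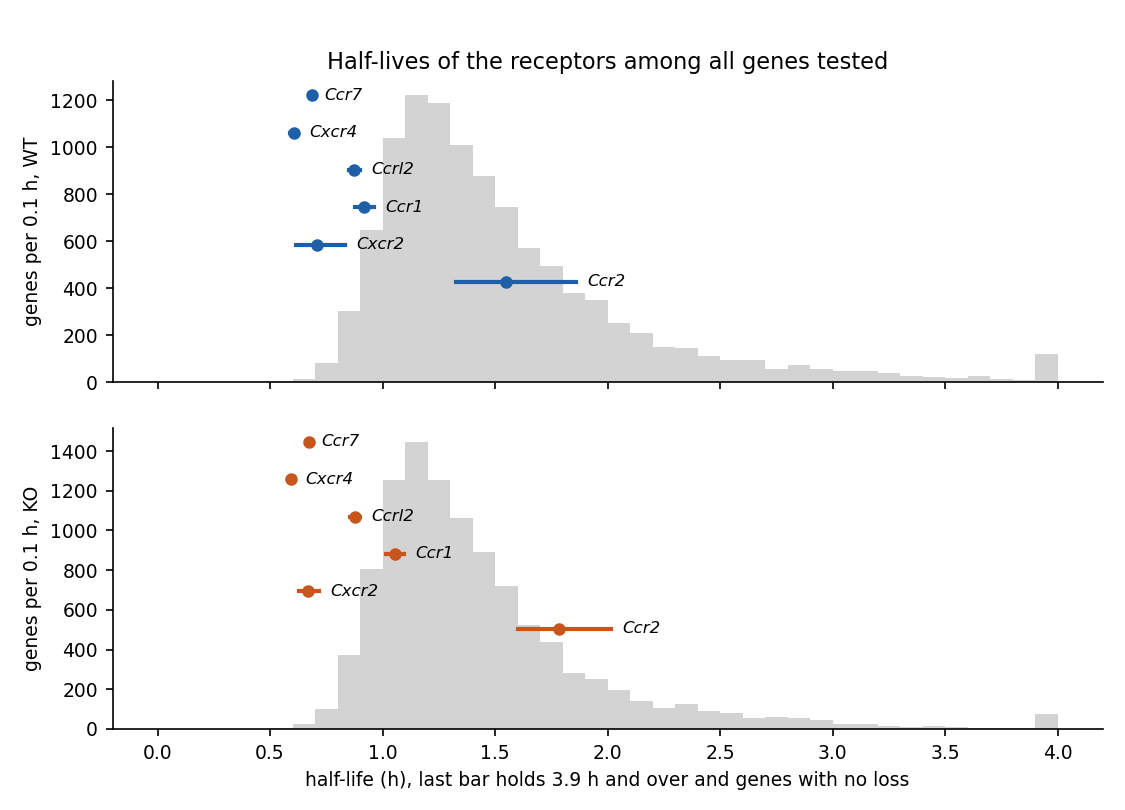
Number of tested genes by half-life in bins of 0.1 h (grey bars) in WT (top) and KO (bottom), with the half-life of each receptor as a point and its 95% counting interval as a line; the height of the points has no meaning. Cxcr4 at 0.607 h and Ccr7 at 0.687 h in WT lie at the left edge of the distribution, and Ccr2 at 1.55 h lies to the right of its peak.

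On spike-in scaled amounts most of the loss took place in the first 3 h, for receptors as for genes in general. In WT 96.0% of all genes tested had a lower rate from 3 to 6 h than from 0 to 3 h. In RPKM this did not hold for Ccr2, at 78.8% and 45.5% of its 0 h value in WT at 3 and 6 h. In KO it was at 107% and 87.4%. Between 3 and 6 h RPKM of Ccr7 moved to 90.9% (87.3 to 94.6) in WT and to 91.0% (87.4 to 94.7) in KO, while RPKM of the median gene moved to 80.3% and 91.0%. Ccrl2 moved to 99.2% (85.4 to 115) in WT and to 86.8% (75.7 to 99.4) in KO. Relative to the median gene neither of these genes was lost further after 3 h in WT. Cxcr4 moved to 73.8% (56.4 to 96.1) in WT and to 64.4% (50.6 to 82.7) in KO. Ccr1 was the receptor with the clearest late loss, to 35.5% (26.8 to 46.9) in WT, against 73.0% (62.0 to 85.3) in KO. For Ccr2 the values were 57.7% (36.7 to 90.1) and 81.9% (65.9 to 101), and for Cxcr2 the reads left no direction in either culture. No receptor was short-lived when decay from 3 to 6 h alone was used. The half-lives given here average over a faster first and a slower second interval.

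The 3′ untranslated regions (3′ UTR) of the receptors were compared for the pentamer ATTTA, the core of AU-rich elements that in many cytokine and immediate-early mRNAs promote decay, and for GGACT, the most common core of m6A sites. The letters come from 1 transcript model per gene of GENCODE M21 (mm10), and a match is no more than these letters on the transcript strand. ATTTA occurred in 69.8% of the 9366 tested genes with a 3′ UTR of at least 100 bases and in 78.9% of the 421 short-lived ones. The median was 1.34 copies per kb over all these genes. Ccr7 held 0 copies of ATTTA in its 762 bases, Cxcr4 1 copy in 644 bases, Ccr1 1 in 1300, Cxcr2 2 in 1818 and Ccrl2 2 in 860 bases. Ccr2, the slowly lost receptor, held 5 copies in 1744 bases, the highest density of the 6 at 2.87 per kb. Within the group, then, the count of ATTTA did not follow the order of half-lives. GGACT occurred in 63.3% of genes and once each in Ccr7, Cxcr4 and Ccr2, with 0 copies in the other receptors. The sites below are shown because they set the receptor without ATTTA beside those with it, with the pentamer in capitals.
Ccr7, GGACT, chr11:99144930-99144950, minus strand: ccctgcccGGACTacaaggac
Cxcr4, GGACT, chr1:128588566-128588586, minus strand: tgtgtgtaGGACTgtagaact
Ccr2, GGACT, chr9:124107374-124107394, plus strand: ggctgccaGGACTgagtgaga
Cxcr4, ATTTA, chr1:128588660-128588689, minus strand: gaggtttgacttaATTTAtataaatacttt
Ccrl2, first ATTTA, chr9:111055231-111055260, minus strand: ctggttaatgaacATTTActactaagcgtt
Ccr2, first ATTTA, chr9:124106955-124106984, plus strand: agaaaacataggtATTTAcattataattca
The stretch shown for Ccr7 begins at base 8 of its 3′ UTR, close behind the stop codon. The presence of m6A at any of these sites was not measured in these libraries.

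The second comparison was of KO with WT. No receptor was counted as differing in decay, a call that needed half-lives 1.5-fold apart relative to the median gene and both rates to differ the same way. The share of all genes so called was 0.775% for a shorter and 0.842% for a longer half-life in KO. For Ccr7 the KO decay rate minus the WT rate, relative to the median gene, was -0.0111 log2 units per h (-0.0222 to 5.8e-05). For Cxcr4 it was -0.0042 (-0.0687 to 0.0603) and for Cxcr2 0.041 (-0.193 to 0.275). The rates of these 3 receptors could thus not be told apart between the cultures by counting error alone. For Ccrl2 the difference was -0.0456 (-0.0881 to -0.0032), for Ccr2 -0.127 (-0.252 to -0.0022) and for Ccr1 -0.182 (-0.243 to -0.121). The sign was not firm for Ccrl2, Ccr7 and Cxcr4, at 0.0127, 0.0143 and 0.0407 without the 3 h libraries. Nor was it firm for Cxcr2, at -0.0303 without the 6 h libraries. Ccr1 and Ccr2 were the receptors left in larger share in KO than in WT at both times relative to the median gene, and without replicates it cannot be said whether cultures of 1 genotype would differ as much.

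In level, 2 of the 6 receptors, Cxcr2 and Ccr2, were at least 1.5-fold higher in KO at all 3 times relative to the median gene, against 1.67% of all genes. With a pseudocount of 1 RPKM, or with the deposited values taken as they stand, only Ccr2 kept the call. None was lower by that rule, against 0.936%. On spike-in scaled amounts Ccr1 joined them, which made 3 of the 6 against 2.59% of all genes. Both counts include Ccr2, which met the filter of a mean of 1 RPKM only through its KO libraries, where it was high. In WT it was at 1.28, 1.01 and 0.582 RPKM, and Cxcr2, at 2.75, 0.106 and 0.192 RPKM there, would have met the filter narrowly. The counts are thus not independent of the filter. For Cxcr2 the ratio of KO to WT in RPKM was 3.05 (2.57 to 3.65), 5.11 (2.25 to 15.9) and 2.68 (1.26 to 5.86) at 0, 3 and 6 h. For Ccr2 it was 2.58 (1.97 to 3.38), 3.49 (2.59 to 4.70) and 4.95 (3.34 to 7.36). Ccr1 was at 1.40 (1.28 to 1.54), 1.92 (1.63 to 2.29) and 3.96 (3.01 to 5.21), so that it missed the call at 0 h and the gap between the cultures was widest at 6 h. RPKM of the median gene had ratios of 0.996, 0.997 and 1.13.

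The abundant receptors were close between the cultures. Ccr7 had ratios of 0.981 (0.971 to 0.992), 1.04 (1.00 to 1.08) and 1.04 (0.998 to 1.09) in RPKM. Relative to the median gene these became 0.985, 1.04 and 0.923, and on spike-in scaled amounts 1.3, 0.910 and 2.07, which is the shift of all genes. The direction for Ccr7 is thus set by the scaling. Cxcr4 was at 1.2 (1.15 to 1.26), 1.31 (1.05 to 1.65) and 1.15 (0.870 to 1.54). Ccrl2 was at 1.1 (1.03 to 1.16), 1.34 (1.17 to 1.54) and 1.17 (1.01 to 1.36). Both lay above 1 at every time, under the 1.5-fold of the call.

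**Figure D4:**
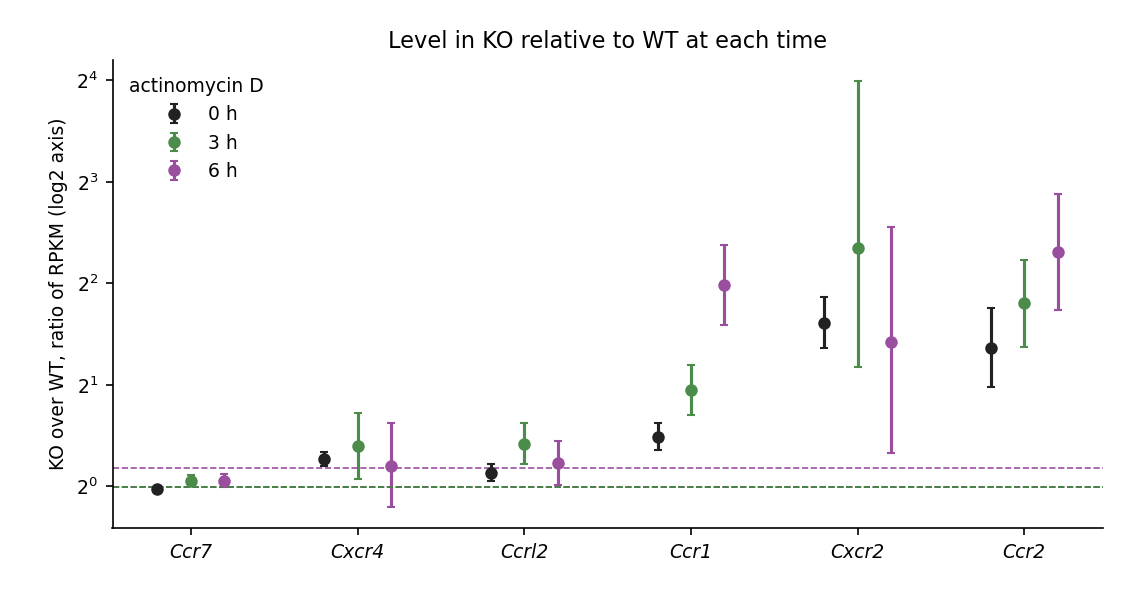
Ratio of KO to WT in RPKM for each receptor (log2 axis) at 0, 3 and 6 h of actinomycin D, with 95% counting intervals; dashed lines give the ratio of the median gene at each time. Ccr7 lies between 0.981 and 1.04, and Ccr1, Cxcr2 and Ccr2 lie above the dashed lines at every time, up to 4.95 for Ccr2 at 6 h and 5.11 for Cxcr2 at 3 h.

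Ccr1 and Ccr2 lie on chromosome 9. Receptors of this family can be similar in sequence, as Ccr1 and its near copy Ccr1l1 are, and the rule by which reads shared by such genes were assigned was not given in the sources used here. The values of both members carry that limit. Ccr1l1 was at 0.183 RPKM or less in every library. Cx3cr1 and Cxcr5, other receptors of the list that passed the filter, were not counted as higher in KO. Cx3cr1, the fractalkine receptor, was at 9.05, 6.74 and 1.86 RPKM in the WT libraries, against 8.59, 8.05 and 3.22 RPKM in those of KO, and Cxcr5 at 6.19, 1.05 and 0.682 RPKM in the WT libraries, against 5.29, 0.917 and 0.722 RPKM in those of KO.

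Markers of neutrophils read higher in the same KO library at 0 h, and those of monocytes and macrophages were mixed. Of 13 neutrophil markers tested, 12 were higher in KO than in WT at 0 h relative to the median gene, and 6 at all 3 times, against 48.0% and 24.3% of all genes tested. Their summed RPKM was 7654, 11537 and 7837 in WT and 13653, 13749 and 8922 in KO at 0, 3 and 6 h. The exception at 0 h was the collagenase Mmp8, which was counted as lower in KO, with 52.2 RPKM in WT and 33.7 RPKM in KO. By the 1.5-fold rule 2 of the 13 were higher and 1 lower in KO, against 1.67% and 0.936% of all genes. The alarmin S100a8 was at 2238 RPKM in WT and 4615 RPKM in KO at 0 h, but at 1696 and 1512 RPKM at 6 h. The granule proteins Ngp and Ltf were at 225 and 793 RPKM and at 36.4 and 157 RPKM at 0 h, while Elane and Mpo, enzymes of early granulocytes, were at most at 0.210 and 0.577 RPKM in any library. For Ngp and Ltf the log2 level relative to the median gene at 0 h was 1.82 and 2.12, beside 1.58 for Cxcr2. Ngp was still at 41.3 RPKM in WT and 103 RPKM in KO at 6 h, so Cxcr2, at under 1 RPKM by then, was lost to a larger share than this marker in both cultures. Retnlg, the 1 short-lived marker of the 13, went the other way. It fell from 8.05 to 0.249 RPKM in WT and from 25.4 to 0.132 RPKM in KO between 0 and 6 h. At 6 h it was left in a smaller share than Cxcr2 in both cultures, on few reads. Of 14 monocyte and macrophage markers, 9 (64.3%) were higher in KO at 0 h and 6 (42.9%) at all 3 times, against 48.0% and 24.3% of all genes. By the 1.5-fold rule 2 of them, Fcgr1 and C1qa, were higher in KO and 0 lower, against 1.67% and 0.936%. The markers had a median log2 level of 0.14, -0.0050 and 0.35 at 0, 3 and 6 h. They summed to 5411, 9717 and 7233 RPKM in WT and 6257, 9403 and 10022 RPKM in KO. Among them the Fc receptor Fcgr1 was at 18.5 and 56.6 RPKM at 0 h, in contrast to Adgre1, which encodes F4/80, at 269.6 and 213 RPKM and to the LPS co-receptor Cd14 at 413 and 285 RPKM. Mrc1 and F13a1 were at most at 0.969 and 0.533 RPKM in any library. The part of such cells in the levels of Cxcr2, Ccr1 and Ccr2 was not tested, and in bulk RNA more cells of a type and more RNA per cell cannot be told apart.

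Among the DC markers the class II genes were abundant, and markers of lymphocytes were near 0. The class II genes Cd74 (3315 RPKM in WT and 2680 RPKM in KO at 0 h) and H2-Aa (1342 and 1022 RPKM) led the DC list. Outside class II, Batf3 was the highest in the WT library of 0 h (110 RPKM). Flt3 (27.0), Zbtb46 (23.9), Irf4 (17.8), Ciita (16.8), Itgax (13.1) and Dpp4 (12.8) were far lower there. Kmo, with 0.892 RPKM in that library, did not pass the filter. The KO library of 0 h held Batf3 at 145 RPKM, and none of these other markers exceeded 29.8 RPKM. Of 11 DC markers tested, 2 were higher in KO at 0 h relative to the median gene, against 48.0% of all genes. By the 1.5-fold rule 2 of the 11 were lower in KO, the protease Dpp4 and the class II transactivator Ciita, against 0.936% of all genes. None was higher, against 1.67%. The T and NK cell markers summed to 7.29 to 14.2 RPKM and the B cell markers to 0.371 to 2.05 RPKM per library, with Pax5 at 0 in all 6.

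The ligands of the receptors formed a divided group. Of 19 listed ligands 12 passed the filter. Of these, 5 were lower and 4 higher in KO by the 1.5-fold rule, against 0.936% and 1.67% of all genes tested. The ligands of Cxcr2 were the lower ones, all 5 of those that passed. Cxcl1 was at 190.2 RPKM in WT and 50.9 RPKM in KO at 0 h, Cxcl2 at 115 and 31.7 RPKM, Cxcl3 at 498 and 129 RPKM, Cxcl5 at 68.1 and 15.0 RPKM and Ppbp at 18.1 and 4.34 RPKM. The receptor Cxcr2 and its ligands thus stood on opposite sides of the median gene. The higher ones were ligands of Ccr1 and Ccr2. Ccl6 was at 26.1 and 56.8 RPKM and Ccl9 at 21.7 and 53.6 RPKM, both ligands of Ccr1, and Ccl7 was at 3.18 and 10.7 RPKM and Ccl12 at 0.351 and 5.29 RPKM, both ligands of Ccr2. Ccl2, the main ligand of Ccr2, was at 47.6 and 61.1 RPKM and was not counted. Ccl5, with 23084 and 26068 RPKM the most abundant of the ligands, lay within 0.20 log2 units of the median gene at every time. Of the Ccr7 ligands, Ccl19 was at most at 0.90 RPKM and Ccl21a and Ccl21b were listed at 0 in every library. The Cxcr4 ligand Cxcl12 and chemerin (Rarres2) were at most at 0.436 and 0.505 RPKM.

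Ligands and receptors also differed in how they were lost. Of the 12 ligands 8 were long-lived and 0 short-lived, against 11.3% and 4.16% of all genes tested. Their median half-lives were 2.84 h (WT) and 2.39 h (KO), against 0.791 and 0.775 h for the 6 receptors. Cxcl1 was the ligand with the shortest half-life (0.985 h in WT, 0.993 h in KO). RPKM of Ccl9, a share of what remains in the cell, went from 21.7 to 78.8 in WT. Ccl12 was the only ligand counted as differing in decay (9.12 h for WT, 2.80 h for KO), and it rests on 0.351 RPKM in WT at 0 h.

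**Figure D5:**
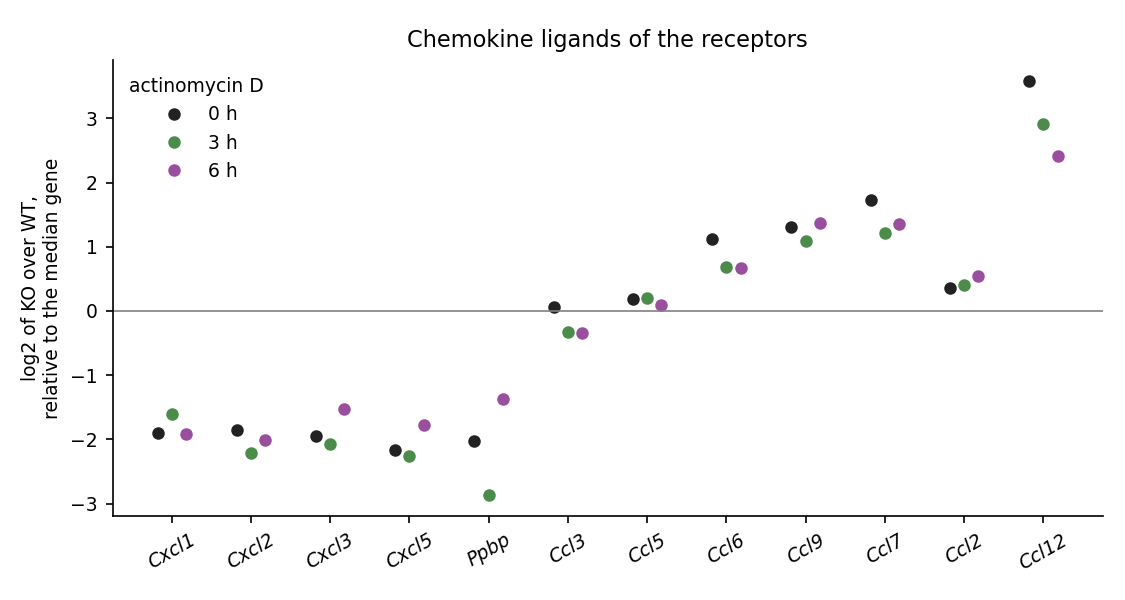
Log2 ratio of KO to WT relative to the median gene for the 12 ligands that passed the filter, at 0, 3 and 6 h of actinomycin D; each point is 1 pair of libraries. The 5 ligands of Cxcr2 (Cxcl1 to Ppbp) lie under 0 at every time and Ccl6, Ccl9, Ccl7 and Ccl12 over 0, with Ccl12 at 3.58 at 0 h.

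Genes that act behind the receptors were not counted as differing between the cultures. Of 21 genes for Gi subunits, arrestins, receptor kinases and their effectors, 0 were counted in either direction for level or decay. That is near the 1.67% and 0.936% of all genes counted as higher and lower. Of these 21 genes 0 were short-lived, against 4.16% of all genes. Their half-lives had a median of 1.56 h for WT and of 1.41 h for KO. Gnai2, the main Gi subunit of leukocytes, was at 375, 441 and 384 RPKM in the WT libraries, against 389.9, 429 and 416 RPKM in those of KO, and was long-lived. The β-arrestin Arrb2, which ends receptor signalling, was at 184 RPKM in WT and 278 RPKM in KO at 0 h, a log2 level of 0.60, 0.60 and 0.54 at the 3 times and so close to the threshold. Elmo1, part of a Rac activator, was under the median gene at each of them, at -0.39, -0.64 and -0.44. RGS proteins, which switch Gi signals off, were more like the receptors. Rgs1, which damps chemokine responses, was at 196, 24.4 and 9.99 RPKM in the WT libraries, against 181, 23.1 and 15.0 RPKM in those of KO, with half-lives of 0.733 and 0.739 h. Rgs2 was short-lived as well, which made 2 of 8 tested, against 4.16% of all genes. Rgs10 was the 1 of these 8 counted as higher in KO, against 1.67% of all genes, with 88.2 and 163 RPKM at 0 h. It was also the 1 that was long-lived, against 11.3% of all genes.

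Most other genes of migratory mature DC did not share the fast loss of Ccr7. Of 18 such genes 1 was short-lived, against 4.16% of all genes tested. It was the maturation marker Cd83, at 352, 32.6 and 19.9 RPKM in the WT libraries, against 306, 29.8 and 21.8 RPKM in those of KO. Fscn1, which bundles actin in DC protrusions, was at 2357, 1016 and 619.6 RPKM in the WT libraries, against 2404, 1089 and 669 RPKM in those of KO, with half-lives of 1.15 and 1.11 h. The chemokine Ccl22 was long-lived, with 4409 RPKM in WT and 3595 RPKM in KO at 0 h. Half-lives of the 18 genes had a median of 1.36 h (WT) and 1.26 h (KO), near that of all genes. In level 0 of them were counted as differing, near the 1.67% and 0.936% of all genes counted as higher and lower.

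For each receptor the genes with the most similar course over the 6 libraries were sought among 6855 genes whose mean reached 5 RPKM, by the root mean square (RMS) difference of log2 scaled amounts after the mean of each gene was removed. Such likeness describes these 6 libraries, which share the same fall with time. For Ccr7 the nearest were Zfp36, which encodes tristetraprolin, a protein that binds AU-rich elements (RMS 0.16), Flrt3 (0.16), Cd83 (0.20), the NF-κB inhibitor Nfkbia (0.22) and Tmem51 (0.23). Zfp36 was at 393, 31.2 and 29.5 RPKM in the WT libraries, against 496, 39.4 and 37.4 RPKM in those of KO. In RPKM this fall was similar in size to that of Ccr7, with little change from 3 to 6 h. On spike-in scaled amounts Ccr7 was still lost in WT, from 2.15% left at 3 h to 1.19% at 6 h, against 1.5% and 1.89% in KO. For Cxcr4 they were the immediate-early genes Fos (0.05) and Dusp1 (0.25), the kinase Sgk1 (0.20), Clec2d (0.26) and Tmem51 (0.42). Fos fell from 12.4 to 0.477 RPKM in WT and from 16.4 to 0.688 RPKM in KO within 3 h.

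For Ccrl2 the nearest genes were the antiproliferative gene Btg2 (0.06), Cdca4 (0.08), Nlrx1 (0.10), Rhob (0.10) and Susd6 (0.11). Ccr1 was nearest to C3ar1, the receptor for the complement fragment C3a (0.13), to Tmem86a (0.15), to the nucleotide receptor P2ry6 and Phax (0.18 each) and to Bloc1s3 (0.19). C3ar1 was at 25.7, 8.21 and 3.12 RPKM in the WT libraries, against 40.2, 17.0 and 9.77 RPKM in those of KO. Of 10 tested chemoattractant receptors outside the chemokine family, C3ar1 was the 1 counted as higher in KO, against 1.67% of all genes. Ccr2 was nearest to the interferon-induced genes Isg15 (0.22) and Slfn4 (0.24), to its own ligand Ccl7 (0.27), to the interferon-induced lectin Siglec1 (0.31) and to Scand1 (0.31). Isg15 was at 306, 189 and 111 RPKM in the WT libraries, against 638, 493 and 480.0 RPKM in those of KO. For Cxcr2 no gene was close, the nearest being Tmem51 (0.53), the phosphatase Dusp2 (0.54), Tlr2 (0.56), Zfp36 (0.57) and the chemokine Ccl4 (0.59). Except for Cxcr2, with few reads, each receptor had at least 1 gene within an RMS of 0.22.

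The promoters of the members, 250 bases before to 50 after the start in RefSeq (GRCm38), were searched on both strands for the κB-type motif (GGG, any 5 bases, CC). Ccrl2, Cxcr2 and Ccr1 held it among 5 members with an entry, against 50.8% of 32851 promoters. Ccr7 had no entry, so its promoter was not searched. Ccrl2 had matches at 3 positions, and the one shown is that which overlaps no other, with the motif, read on the opposite strand, in capitals.
Ccrl2, chr9:111057567-111057596, minus strand, 68 bases before the start: tcctcacacaGGACTTTCCCccggggcttc
Binding of NF-κB was not measured in these libraries.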

How the data were processed

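The authors aligned reads with TopHat2 2.0.14 to mm10 and computed RPKM with Cuffnorm, per the labels; the annotation and strand setting were not given in the sources used here, and the labels and methods name different library kits. The deposited RPKM columns were tested on the values: each equals a factor times (RPKM plus 1) raised to 1 over an exponent (factors 0.220 to 1.29, exponents 0.991 to 1.04, both 1 for WT at 0 h). Undoing this gave RPKM of 6 significant digits for 100% of values. A pair of deposited columns with the authors' lifetimes was not used, and 27 gene names that a spreadsheet had turned into dates were left as they are.

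Samples were grouped by their labels. Recovered RPKM plus 0.1 was scaled by 1 factor per library, the median log2 ratio to WT at 0 h of 75 ERCC transcripts detected in every library (1, 0.289 and 0.176 for WT and 1.33, 0.253 and 0.349 for KO at 0, 3 and 6 h). Fold changes are on this log2 scale, which understates low genes. The decay rate k is the log2 loss per h, and the half-life is 2 divided by the sum of the rates to 3 h and to 6 h. Rates under 0.02 per h were set to 0.02 in ratios of half-lives. Genes whose mean reached 1 RPKM were tested. Levels were centred on the median of these genes. Depth is not stated with the files; reads were approximated from RPKM, the transcript length of GENCODE M21 and the depth that turns low values of genes with 1 transcript into whole reads. Titles carry D3 on WT and D2 on KO libraries, which is not explained. The named genes are the members, other chemokine receptors that passed the filter (1 is not reported here), at most 4 genes per list, those at either end of a value, and the 5 nearest genes per member; genes named as examples beyond that were chosen after their values were seen. The members and lists were chosen with earlier results of these data known. Scripts, tested on simulated data, used Python 3.11.15, numpy 2.4.6, pandas 2.3.3 and scipy 1.17.1. Alternatives were other pseudocounts, filters, times, scalings and folds.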

Additional observations from a re-analysis of the deposited data

How the results depend on the processing

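No paired analysis was possible because each group holds 1 library. Counts of members kept their value, within 1.5-fold, under 85 of 98 alternatives, and of 342 values of single members under another setting 226 moved by less than counting error and 116 by more. Many of the 226 could not move at all. A changed fold leaves a value as it is, and filters do not enter half-lives or spike-in scaled levels. Library factors cancel in values relative to the median gene. Counts of 0 that stayed at 0 are among the 85. These tallies are thus no measure of robustness. Of the 342, 16 changed sign, 11 of them differences in decay between KO and WT, 4 shares left and 1 a level. With decay from 3 to 6 h alone, 0 receptors were short-lived. The mean log2 share left relative to the median gene then became 0.0862 for Ccr7, 0.44 for Cxcr2, 0.12 for Ccrl2 and -0.27 for Ccr2. Under that setting 2 were counted as faster in KO (Cxcr2 and Ccrl2) and 1 as slower (Ccr1). That setting counted 1398 and 1064 of the 10576 genes tested as faster and slower, far more than the main rule. Slower decay in KO was counted for 2 receptors (Ccr1 and Ccr2) at a fold of 1.2, against 421 of the 10576 genes tested. With no spike-in scaling it was counted for 1 (Ccr2), against 740. On spike-in scaled amounts it was counted for 2 (Ccr1 and Ccr2) without the 3 h libraries and for 1 (Ccr2) with no spike-in scaling. The count of receptors higher in KO was 1 (Ccr2) with a pseudocount of 1 RPKM, with the deposited values as they stand and at a fold of 2, and 0 with the filter at 5 RPKM, which removes Cxcr2 and Ccr2. On spike-in scaled amounts it was 1 with that filter (Ccr1) and 1 with the deposited values (Ccr2). Half-lives depend most on the scaling and on the 3 h libraries: without scaling that of Ccr7 was 1.06 h (WT) and 1.08 h (KO), and the median over genes 3.21 and 3.38 h. Over all genes, the short-lived count of 440 became 224 with a pseudocount of 1 RPKM, 801 without the 3 h libraries, 23 from 3 to 6 h alone and 1124 at 1.5-fold. Genes counted as faster and slower in KO (82 and 89) became 828 and 740 with no spike-in scaling and 994 and 504 with no filter, and those higher and lower in level (177 and 99) became 269 and 182 without the 6 h libraries. The cause of these shifts was not tested. With 6 to 33 reads after actinomycin D, Cxcr2 is limited by depth.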

Other observations

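Of 15 chemokine receptors of the list that did not pass the filter, the highest single value was 1.09 RPKM, for Cxcr6 in WT at 0 h, and Ackr2 was at 0 in all 6 libraries. The Th2 receptor Ccr4 was at 0.951, 0.257 and 0.251 RPKM in the WT libraries of 0, 3 and 6 h, against 0.509, 0.0366 and 0.112 RPKM in those of KO, under WT at every time, and Cxcr6 was at 0.698 RPKM or less in KO, also under WT at every time. Xcr1, the receptor of cross-presenting DC, reached 0.467 RPKM at most. These values rest on few reads.

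Receptors for other attractants were more abundant than most chemokine receptors. The formyl peptide receptors Fpr1 and Fpr2 were at 313 and 278 RPKM in the WT libraries, against 301 and 385 RPKM in those of KO at 0 h. Of the 10 tested, 2 were short-lived like Ccr7, against 4.16% of all genes tested. The platelet-activating factor receptor Ptafr was at 35.1, 3.65 and 5.42 RPKM in the WT libraries, against 32.4, 6.78 and 5.70 RPKM in those of KO, and S1pr1, the sphingosine phosphate receptor that lets lymphocytes leave lymph nodes, at 5.97, 0.772 and 0.455 RPKM in the WT libraries, against 5.58, 0.70 and 0.651 RPKM in those of KO. Their half-lives were 0.788 and 0.793 h in WT, between those of Ccr7 and Ccrl2.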
